A study of Mus musculus with 8 samples.

Results

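The genes described here make the machinery that switches integrins on and ties them to the actin cytoskeleton. They were taken by symbol from a list of 46 names chosen with earlier results of these data known. Of the 46, 45 were found in the deposited table of 13245 genes, and all 45 passed a minimum mean of 1 CPM (counts scaled to library size), as did 11503 genes in all. Parvb was not analysed here. The 45 were divided by role into 16 genes of the talin, kindlin and Rap1 module, 21 actin-binding genes and 8 actomyosin genes.

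Lymph nodes of mice were the source of the sorted CD8 T cells (Ly6C+ CXCR3+), which the series title describes as of memory phenotype, and their RNA was sequenced. The 2 groups were C57BL/6 (B6), the wild type, and CD103Tg, mice that overexpress CD103, with 4 libraries each. Itgae encodes CD103, an integrin alpha chain (alpha E) whose partner is beta 7 and whose ligand is E-cadherin. The promoter that drives the transgene, the age and sex of the animals and whether libraries came from single or pooled animals have no statement in the sources used here. The p-values therefore cover only the spread among these 8 samples, which may be technical.

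Integrins on a resting T cell are mostly bent and inactive. Signals from antigen and chemokine receptors load the small GTPase Rap1 with GTP, Rap1 and its effectors bring talin to the integrin beta tail, and kindlin binds beside it, which opens the receptor. Vinculin, paxillin and the complex of integrin-linked kinase, PINCH and parvin then couple the tail to actin filaments, whose growth, crosslinking and pulling by myosin carry the force. In lymphocytes this machinery serves arrest on vessel walls, crawling in lymph nodes and the immunological synapse.

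Itgae ranged from 37.5 to 173.9 CPM over the B6 libraries and from 3469 to 5509 CPM over the CD103Tg libraries. Cd247, which encodes the CD3 zeta chain, also differed, at 285 to 478 CPM against 7877 to 10164 CPM. Both moved with the groups, so their parts in what follows cannot be told apart. Libraries held 50187279 to 56371476 estimated reads. All 12 markers of T cells were tested, of which 6 fell and 0 rose, with summed levels of 11100 to 12600 CPM in B6 and 10100 to 11200 CPM in CD103Tg. Mitochondrially encoded genes took 1.81% to 2.29% of the signal in B6 and 1.09% to 1.31% in CD103Tg. The libraries numbered 4 held the most hemoglobin mRNA of their groups (55.2 and 182.6 CPM). B6 replicate 4 also held the most Itgae (173.9 CPM) and the most Cd247 (478 CPM) of the B6 libraries. Xist was at 72.0 CPM with almost no Y-linked signal (0.04 CPM) in B6 replicate 3, while CD103Tg replicates 1, 3 and 4 held both (21.7, 36.4 and 45.2 CPM of Xist beside 155, 102.3 and 54.0 CPM of 4 Y-linked genes). The part of these differences in the results was not tested, apart from fits without single libraries, without both libraries numbered 4 and with the Y-linked level as a covariate.

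A few components moved by a large amount: 6 genes passed the test below with a log2 fold change of at least 0.5 in size. Another 11 passed with smaller changes, and the rest did not pass. The actin crosslinker gene Actn1 and the calponin gene Cnn3 fell to 0.252 and 0.160 of their B6 means, while the filament-capping gene Capg rose 2.91-fold, the vinculin gene Vcl 2.21-fold, the myosin gene Myo1f 1.78-fold and the vimentin gene Vim 1.56-fold. Of the 45 genes, 13 (28.9%) rose, 4 (8.89%) fell and 28 did not pass (limma-trend on log2(CPM + 1), Benjamini-Hochberg adjusted over all 11503 tested genes, adjusted p under 0.05). Over all tested genes 17.4% rose, 13.8% fell and 31.2% were called in either direction, against 17 of 45 (37.8%) here. The groups did not overlap in 18 of the 45 (40.0%) and in 31.0% of all tested genes. Neither share is read as an excess over the background. The list was chosen with earlier results of these data known, and it was not tested as a whole. The median log2 fold change was 0.03 for the 45 genes and -0.005 for all tested genes. In bulk RNA, a lower level can come from fewer cells that express a gene or from less RNA per cell, and these cannot be told apart. With quantile normalization 12 of the 45 rose and 8 fell, and with libraries rescaled to equal totals 13 rose and 7 fell.

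**Figure D1:**
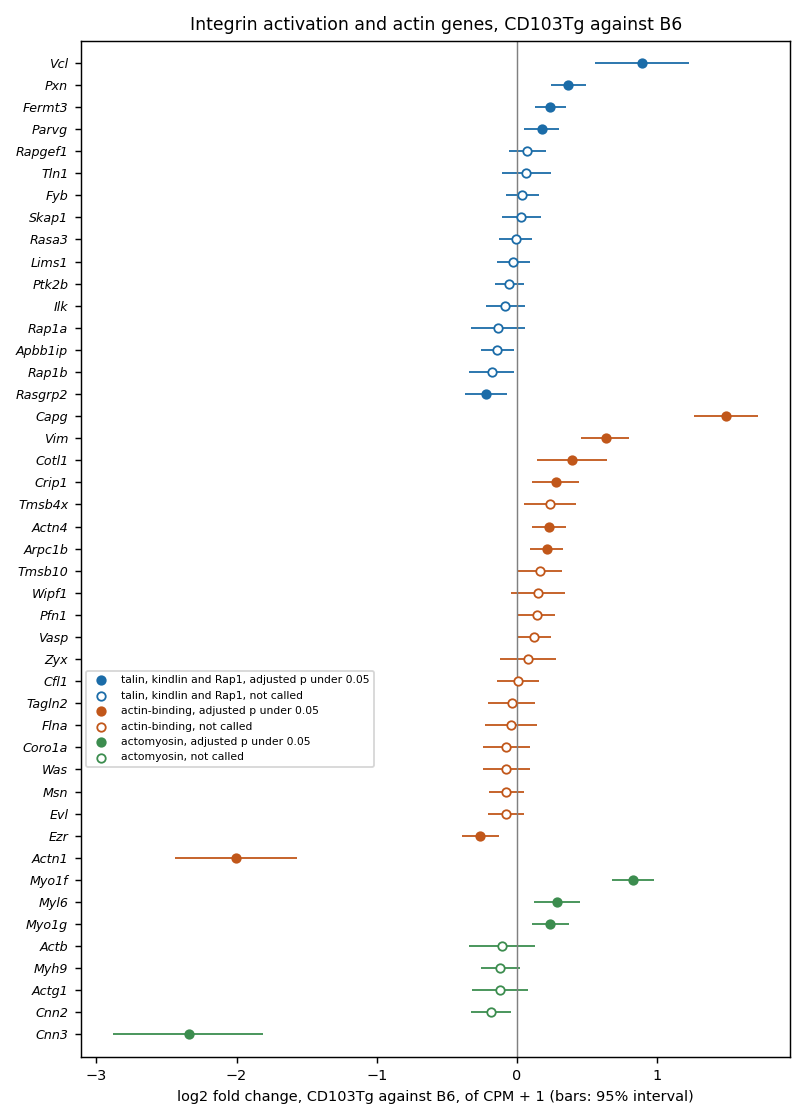
Log2 fold changes of CPM + 1, CD103Tg against B6 (x axis), for the 45 genes (y axis), in 3 blocks by role and sorted within each. Points are limma estimates, bars their 95% intervals, and filled points have an adjusted p under 0.05; Actn1 (-2.01) and Cnn3 (-2.34) lie far to the left and Capg (1.49) to the right, while the 28 open points lie between -0.18 and 0.24.

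Many genes for actin and its partners are controlled by serum response factor, which binds a 10-base element, the CArG box. Promoter windows of 300 bases (250 before and 50 after the start; RefSeq, GRCm38.p6) were found for 39 of the 45 genes and searched for it on both strands, where the element reads alike. It was present in 4 of the 39 (10.3%), against 1.49% of the 9300 genes of the table with a window and 1.63% of all 32851 windows. The 4 genes are Vcl, Cnn2, Myl6 and Actg1, of which Vcl and Myl6 rose and Cnn2 and Actg1 did not pass. The windows of Vcl, Cnn2, Cnn3 and Actn1 are printed 5′ to 3′ on the strand of the gene, because Vcl, Cnn3 and Actn1 are among the 6 genes with the largest changes and Cnn2 is the calponin that did not pass. Capitals mark the CArG box, which begins 227 bases before the start in Vcl and 56 in Cnn2. They lie at chr14:20929148-20929447, chr10:79988350-79988649, chr3:121426291-121426590 and chr12:80260314-80260613, in that order, on the plus strand (Vcl, Cnn2 and Cnn3) and the minus strand (Actn1).
Vcl: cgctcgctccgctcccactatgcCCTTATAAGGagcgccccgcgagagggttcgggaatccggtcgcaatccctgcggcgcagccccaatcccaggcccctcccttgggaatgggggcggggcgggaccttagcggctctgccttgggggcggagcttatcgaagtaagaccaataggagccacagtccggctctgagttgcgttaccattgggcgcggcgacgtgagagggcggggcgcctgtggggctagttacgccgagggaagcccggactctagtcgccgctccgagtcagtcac
Cnn2: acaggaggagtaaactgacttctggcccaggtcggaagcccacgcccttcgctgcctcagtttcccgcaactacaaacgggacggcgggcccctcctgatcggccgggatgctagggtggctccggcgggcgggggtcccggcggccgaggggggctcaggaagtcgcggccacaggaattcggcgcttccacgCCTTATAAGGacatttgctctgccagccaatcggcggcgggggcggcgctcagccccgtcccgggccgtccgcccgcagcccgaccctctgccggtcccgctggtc
Cnn3: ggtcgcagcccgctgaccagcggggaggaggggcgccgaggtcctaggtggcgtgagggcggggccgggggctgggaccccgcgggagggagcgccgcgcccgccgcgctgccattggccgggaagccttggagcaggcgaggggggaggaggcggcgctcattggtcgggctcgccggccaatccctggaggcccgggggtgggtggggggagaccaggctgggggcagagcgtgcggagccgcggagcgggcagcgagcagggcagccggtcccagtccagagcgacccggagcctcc
Actn1: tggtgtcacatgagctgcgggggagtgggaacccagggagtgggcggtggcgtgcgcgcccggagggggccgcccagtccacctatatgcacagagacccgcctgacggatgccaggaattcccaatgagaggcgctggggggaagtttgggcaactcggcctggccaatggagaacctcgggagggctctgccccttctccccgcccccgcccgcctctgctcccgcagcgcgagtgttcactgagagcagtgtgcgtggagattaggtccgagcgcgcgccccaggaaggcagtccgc
The absence of capitals in Cnn3 and Actn1 says only that these letters were not in this window. No other property of these promoters was measured in these data.

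Of the 16 genes of the talin, kindlin and Rap1 module, 4 rose (25.0%), 1 fell (6.25%) and 11 did not pass. The share called was 31.2%, the same as over all tested genes (31.2%). The groups did not overlap in 25.0% of the module, against 31.0% of all tested genes. Tln1 encodes talin, which binds the integrin beta tail and completes activation (GRCm38 chromosome 4, 43531519 to 43562691). Tln1 was at 583, 522, 567 and 540.1 CPM in B6 replicates 1 to 4 and at 509.9, 544, 606 and 660.0 CPM in CD103Tg replicates 1 to 4. The groups overlapped, with the lowest and the highest of all 8 values both in CD103Tg. The log2 difference of 0.06 ± 0.08 did not pass (SE; limma adjusted p = 0.589), with a 95% interval of -0.11 to 0.24.

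Fermt3, the kindlin of blood cells (chromosome 19, 6998958 to 7019469), was at 415, 393, 399.6 and 427 CPM in B6. In CD103Tg it was at 472, 479, 512 and 467 CPM. Every CD103Tg library lay above every B6 library, with a log2 fold change of 0.24 ± 0.05 (SE; limma adjusted p = 0.00464). Vcl, whose product vinculin is recruited by stretched talin and binds actin (chromosome 14, 20929398 to 21033676), was the least abundant of the 45 genes, at 0.308 CPM per kilobase of exon in B6. It stood at 2.78, 1.83, 2.69 and 2.80 CPM in B6 and at 5.09, 5.45, 7.26 and 4.50 CPM in CD103Tg. The lowest CD103Tg library was well above the highest B6 library, with a log2 fold change of 0.89 ± 0.15 (SE; limma adjusted p = 0.00112). At this low level the value depends on the pseudocount and was 0.49 with a pseudocount of 5. Of the 8191 exonic bases of Vcl, 2090 overlap exons of Ap3m1 on the opposite strand, and the libraries do not mark the strand. Ap3m1 averaged 76.7 CPM in B6 against 70.7 CPM in CD103Tg (log2 fold change -0.11, limma adjusted p = 0.24).

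Pxn, which encodes the adhesion scaffold paxillin, rose by 0.37 ± 0.06 on the log2 scale (limma adjusted p = 0.000586), from 86.5 ± 2.75 to 112 ± 6.93 CPM (mean ± SD, n = 4 each). Its 4 CD103Tg libraries (103 to 119 CPM) lay above its 4 B6 libraries (82.6 to 89.0 CPM). Parvg, the parvin of blood cells that binds integrin-linked kinase and actin, rose by 0.18 ± 0.06 (limma adjusted p = 0.036), with overlapping groups. The Parvg call was lost without B6 replicate 2, 3 or 4 or CD103Tg replicate 1, 2 or 3 (adjusted p = 0.0566 to 0.109), with quantile normalization (0.0829), with equal totals (0.0549) and with the Y-linked covariate (0.0528). The other adhesion complex genes did not pass: Ilk, encoding integrin-linked kinase, was at -0.08 ± 0.06, Lims1, encoding its partner PINCH1, at -0.03 ± 0.05, and Ptk2b, encoding the focal adhesion kinase relative Pyk2, at -0.05 ± 0.05. Of the 2744 exonic bases of Ilk, 2106 overlap Taf10 on the opposite strand (means of 124 CPM in B6 against 118 CPM in CD103Tg), so its reads are uncertain.

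Rap1a and Rap1b encode the 2 Rap1 proteins. Rap1b was at 1147.1, 955, 997 and 920.4 CPM in B6 and at 927, 923, 842 and 852 CPM in CD103Tg. B6 replicate 4 lay within the range of the CD103Tg libraries, and the log2 fold change of -0.18 ± 0.07 did not pass (limma adjusted p = 0.0914). Rap1b passed as lower without B6 replicate 4 (adjusted p = 0.0474), with quantile normalization (0.041) and with equal totals (0.0335). Rap1a was at 259, 206, 220.1 and 186 CPM in B6 and at 203, 194, 182 and 209 CPM in CD103Tg (-0.13 ± 0.09, limma adjusted p = 0.285). Its groups overlapped, with B6 replicate 1 above the rest. Per kilobase of exon, Rap1b was the more abundant of the pair in B6, at 349 against 83.5 CPM.

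Of the 6 listed regulators, effectors and adaptors of Rap1, 1 passed. Over all tested genes 31.2% passed, and 6 genes are too few to compare with that share. Rasgrp2, which encodes the calcium-responsive exchange factor CalDAG-GEFI that loads Rap1, fell by 0.22 ± 0.07 on the log2 scale (limma adjusted p = 0.0298), from 152 ± 15.2 to 130 ± 3.50 CPM, with no overlap. It lost its call without B6 replicate 1 or 3 or CD103Tg replicate 1, 3 or 4 (adjusted p = 0.052 to 0.0829). Rapgef1, which encodes another Rap1 exchange factor, was at 0.07 ± 0.06, and Rasa3, a GTPase-activating protein for Ras and Rap1, at -0.01 ± 0.06. Apbb1ip encodes RIAM, the Rap1 effector that binds talin, and was at -0.14 ± 0.06 (limma adjusted p = 0.0844). It passed as lower without CD103Tg replicate 4 (0.0342), without both libraries numbered 4 (0.0291), with quantile normalization (0.0395) and with equal totals (0.0381). The adaptor genes Skap1 and Fyb, whose products SKAP55 and ADAP carry RIAM to the membrane after receptor triggering, were at 0.03 ± 0.06 and 0.04 ± 0.05. For the 11 genes of this module that did not pass, the separate 95% intervals of the log2 fold change lay within -0.34 and 0.24. The interval end farthest from 0 was a 1.27-fold difference.

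**Figure D2:**
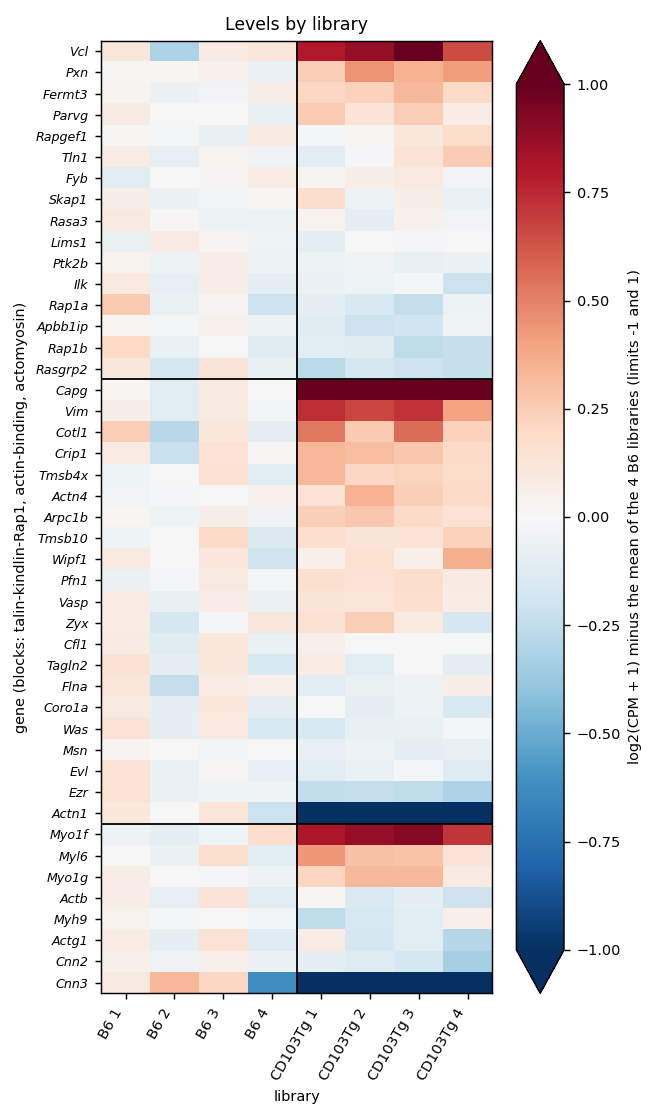
Log2(CPM + 1) of each gene minus its mean over the 4 B6 libraries (colour, limited to -1 and 1), with genes in rows by role and the 8 libraries in columns. The columns of the 2 groups differ in the rows of Vcl, Capg, Vim, Actn1, Myo1f and Cnn3, and CD103Tg replicate 4 is paler than the other CD103Tg libraries for Vim (289 CPM). Capg, Actn1 and Cnn3 lie past the colour limits in all 4 CD103Tg libraries.

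Of the 21 actin-binding genes, 6 rose (28.6%), 2 fell (9.52%) and 13 did not pass. The share called was 38.1%, against 31.2% of all tested genes, and this group was not tested as a set. Actn1 and Actn4 encode the non-muscle alpha-actinins, which crosslink actin filaments and link them to integrin tails. Actn1 (chromosome 12, 80167547 to 80260371) was at 108.2, 100.1, 109.6 and 86.4 CPM in B6. It was at 18.2, 19.2, 25.1 and 39.6 CPM in CD103Tg, with CD103Tg replicate 4 nearest to B6 and still less than any B6 library. This was a log2 fold change of -2.01 ± 0.20 (SE; limma adjusted p = 2.4e-05). Actn4 moved the other way by a small amount, from 423 ± 9.90 to 497 ± 29.8 CPM (0.23 ± 0.05, limma adjusted p = 0.00765), with no overlap. The ratio of Actn4 to Actn1 within a library, which does not depend on the scaling between libraries, was 3.83 to 5.05 in B6 and 12.2 to 28.0 in CD103Tg.

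Capg encodes a gelsolin relative that caps the fast-growing ends of actin filaments and is abundant in myeloid cells (chromosome 6, 72544391 to 72562983). It was at 21.9, 19.8, 23.1 and 21.7 CPM in B6 and at 68.5, 67.9, 66.6 and 48.9 CPM in CD103Tg. CD103Tg replicate 4 was the lowest of its group and still far above the highest B6 library. Capg thus had a log2 fold change of 1.49 ± 0.10 (SE; limma adjusted p = 2.87e-06). Vim, which encodes the intermediate filament protein vimentin and is grouped here for its links to the actin cortex, was at 227, 203, 232 and 214 CPM in B6. In CD103Tg it was at 366, 347, 362 and 289 CPM, again lowest in replicate 4 and above all B6 libraries. This was a log2 fold change of 0.63 ± 0.08 (limma adjusted p = 0.000112).

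Capg and Vim are also expressed by macrophages, so the markers of myeloid cells are given beside them. Of 15 such markers 7 were tested, and 3 of these rose (Cd68, Siglech and Xcr1, each at most 5.49 CPM in any library) and 0 fell. Their summed level was 203 to 293 CPM in B6 and 228 to 300 CPM in CD103Tg, most of it Ctss, which did not pass (221 and 198 CPM). The lysozyme gene Lyz2 was uneven, at 10.7, 55.0, 8.74 and 2.42 CPM in B6 and 63.9, 78.3, 21.7 and 9.42 CPM in CD103Tg. B6 replicate 2, with Lyz2 higher than in CD103Tg replicates 3 and 4, had the lowest Capg and Vim of all 8 libraries. CD103Tg replicate 4, with the lowest Lyz2 of its group, also had the lowest Capg and Vim of its group. The myeloid receptor gene Csf1r was at 0.606 to 4.77 CPM in B6 and at 1.09 to 7.36 CPM in CD103Tg. Spi1, which encodes the myeloid factor PU.1, was below the minimum for testing, at 0.202 to 0.76 CPM in B6 and 0.766 to 2.11 CPM in CD103Tg, with no overlap. The macrophage gene Adgre1 was at 0.0854 to 1.11 CPM in the 8 libraries, and Cd14, Fcgr1, Clec4a1 and Clec9a were not analysed here. Of 8 plasma cell markers 5 were tested and 4 rose, with sums of 60.6 to 79.8 CPM in B6 and 109 to 254 CPM in CD103Tg. Of 12 B cell markers 2 rose and 2 fell, with sums of 833 to 922 CPM and 350 to 551 CPM, mostly Ighm. Lists for natural killer cells (3 of 3 tested rose), CD4 T cells (1 of 1 rose), erythroid cells (0 of 4 called) and stroma (1 of 1 tested, Pecam1, fell) had few tested genes, and those for granulocytes and platelets had 0. Their part in the results was not tested.

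The remaining called genes of this group differed by at most 1.31-fold between the group means. Cotl1, encoding the coactosin-like filament-binding protein, rose by 0.39 ± 0.11, but lost its call without B6 replicate 2 (limma adjusted p = 0.0565), CD103Tg replicate 1 (0.0607) or CD103Tg replicate 3 (0.0658). Crip1, encoding a small LIM-domain protein, rose by 0.28 ± 0.08 (limma adjusted p = 0.0165), from 239 ± 25.6 to 289 ± 12.6 CPM, with no overlap. Arpc1b encodes a subunit of the Arp2/3 complex, the nucleator of branched actin, and rose by 0.21 ± 0.05 (limma adjusted p = 0.011), from 828 ± 28.3 to 958 ± 35.9 CPM. Of its 5115 exonic bases 931 overlap Pdap1 on the opposite strand, a gene at 20.3 CPM in B6 that did not pass (adjusted p = 0.751). Ezr, encoding ezrin, which anchors the cortex to the membrane, fell by 0.26 ± 0.06 (limma adjusted p = 0.00557), from 683 ± 48.6 to 569 ± 12.6 CPM. Its relative Msn, encoding moesin, was the more abundant of the pair per kilobase in B6 (399 against 208 CPM). Msn did not pass (-0.08 ± 0.06, limma adjusted p = 0.334), although all its CD103Tg libraries (2353 to 2429 CPM) lay below its B6 libraries (2481 to 2577 CPM). The ratio of Msn to Ezr was 3.41 to 3.88 in B6 and 4.12 to 4.35 in CD103Tg.

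Coro1a and the genes for actin monomer supply and severing did not pass. Coro1a encodes coronin 1A, an Arp2/3 regulator needed for T cell survival and migration. It was at 2799, 2461, 2829 and 2473 CPM in B6 and at 2639, 2459.8, 2543 and 2367 CPM in CD103Tg, with overlapping groups (-0.08 ± 0.07, limma adjusted p = 0.479). Cfl1, the filament-severing cofilin 1, was at 0.01 ± 0.07 and Pfn1, the monomer-binding profilin 1, at 0.14 ± 0.06 (limma adjusted p = 0.93 and 0.106). Tmsb4x and Tmsb10 encode the beta-thymosins that sequester actin monomers. Tmsb4x was at 4702, 4826, 5386 and 4484 CPM in B6 and at 6091, 5577, 5633 and 5502 CPM in CD103Tg. Its groups did not overlap, yet the log2 fold change of 0.24 ± 0.08 missed the threshold (limma adjusted p = 0.0527). Tmsb4x passed as higher with a pseudocount of 0.1, a minimum mean of 5 CPM, robust variance estimates, equal totals, the Y-linked covariate or without B6 replicate 3 (adjusted p = 0.0196 to 0.0447), and turned to -0.02 with quantile normalization. Tmsb10 was at 0.16 ± 0.07 (limma adjusted p = 0.101), and passed without B6 replicate 3 (0.0172) and with the Y-linked covariate (0.0266). Thymosin, cofilin, profilin and actin genes have near-identical copies elsewhere in the genome, and the sources used here do not say how reads were divided among them.

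The next 7 actin-binding genes did not pass either. Vasp and Evl encode Ena/VASP proteins, which speed filament growth at adhesions. Vasp averaged 252 ± 14.3 CPM in B6 against 274 ± 6.93 CPM in CD103Tg, with no overlap but a limma adjusted p of 0.0997, and Evl was at -0.08 ± 0.06. Was, encoding the Wiskott-Aldrich protein that activates Arp2/3, was at -0.08 ± 0.08, and its stabilising partner Wipf1 at 0.15 ± 0.09. Zyx, encoding the tension-sensitive adhesion protein zyxin, was at 0.08 ± 0.09. Flna encodes filamin A, which crosslinks actin and competes with talin for integrin tails, and was at -0.05 ± 0.08. Tagln2, encoding the actin-stabilising transgelin 2, was at -0.04 ± 0.08.

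Of the 8 actomyosin genes, 3 rose (37.5%), 1 fell (12.5%) and 4 did not pass. The shares over all tested genes were 17.4% higher, 13.8% lower and 31.2% in either direction. The 8 genes are too few to compare with these shares, and this group was not tested as a set. The count of lower actomyosin genes was 2 or 3 in 10 of the 19 alternatives, by way of Cnn2, Myh9 or Actg1. Actb and Actg1 encode the cytoplasmic beta and gamma actins. Actb (chromosome 5, 142903115 to 142906754) was at 14739, 13278, 15382 and 12983 CPM in B6 and at 14242, 12699, 13158 and 12199 CPM in CD103Tg. The groups overlapped, and the log2 fold change was -0.11 ± 0.11 (limma adjusted p = 0.483; 95% interval -0.34 to 0.13). Actb took the largest share of the signal of any gene in every library, at 1.22% to 1.51%. Actg1 was at 2436, 2176, 2549.5 and 2108 CPM in B6 and at 2431, 2053, 2134 and 1896 CPM in CD103Tg. The difference of -0.12 ± 0.09 did not pass (limma adjusted p = 0.337), while quantile normalization made it a call in the lower direction (-0.23, 0.0179). Within libraries, the ratio of Actg1 to Actb was 0.162 to 0.166 in B6 and 0.155 to 0.171 in CD103Tg.

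Myo1f and Myo1g encode class I myosins of blood cells, single-headed motors that tie actin to the membrane. Myo1f (chromosome 17, 33555707 to 33607764) was at 369, 359, 370.3 and 432 CPM in B6 and at 669.7, 703, 723 and 625 CPM in CD103Tg. The groups lay far apart, with a log2 fold change of 0.83 ± 0.07 (SE; limma adjusted p = 8.76e-06). Myo1g rose by less, from 279 ± 9.58 to 330 ± 24.9 CPM (0.24 ± 0.06, limma adjusted p = 0.0113). The ratio of Myo1f to Myo1g was 1.26 to 1.60 in B6 and 2.01 to 2.10 in CD103Tg. Myl6, the essential light chain of non-muscle myosin II, rose by 0.29 ± 0.07 (limma adjusted p = 0.0133), with overlapping groups. Its heavy chain gene Myh9 did not pass (-0.12 ± 0.06, limma adjusted p = 0.192), but passed as lower without CD103Tg replicate 4 (0.0321) and without both libraries numbered 4 (0.0342).

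Calponins bind filaments and restrain myosin on them. Cnn3 (chromosome 3, 121426497 to 121458207) was at 21.5, 25.5, 23.4 and 12.7 CPM in B6 and at 1.85, 2.77, 3.70 and 4.96 CPM in CD103Tg. The lowest B6 library was replicate 4 and the highest CD103Tg library was replicate 4, and the groups did not overlap. Its log2 fold change of -2.34 ± 0.24 (SE; limma adjusted p = 3.4e-05) was the largest of the 45 in size. Cnn2, the more abundant calponin per kilobase in B6 (536 against 6.84 CPM), averaged 1319 ± 52.1 CPM in B6 against 1162 ± 82.7 CPM in CD103Tg. All 4 CD103Tg libraries lay below the B6 libraries, and the log2 fold change of -0.18 ± 0.06 just missed the threshold (limma adjusted p = 0.053). Cnn2 passed as lower with each of the other scalings (adjusted p = 0.0157 to 0.0453), with a minimum mean of 5 CPM (0.0475), with robust variance estimates (0.0431), with the replicate number as a block (0.0383), and without B6 replicate 4 (0.0484) or CD103Tg replicate 1 (0.0478). The ratio of Cnn2 to Cnn3 was 50.3 to 99.9 in B6 and 211 to 668 in CD103Tg.

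**Figure D3:**
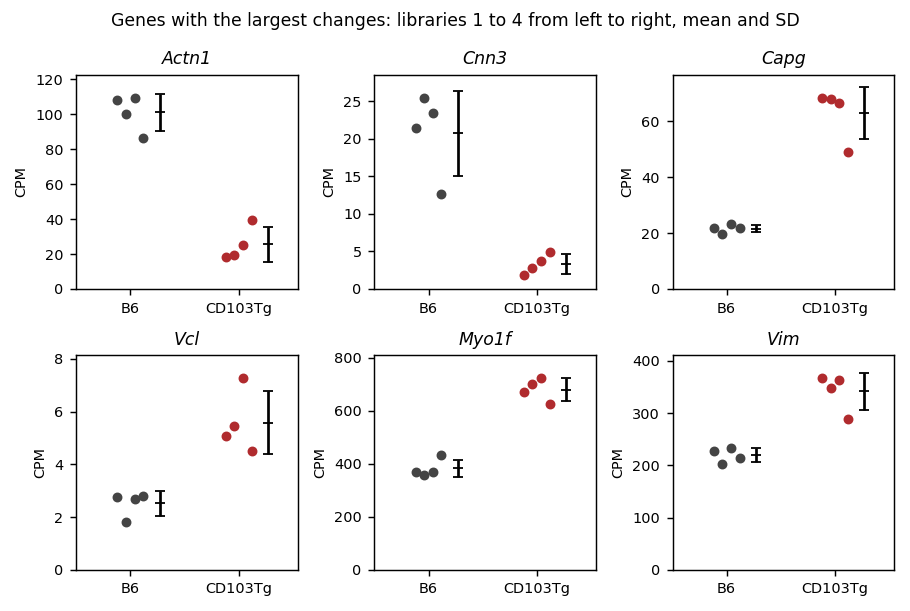
CPM (y axis, from 0) in each of the 4 B6 and 4 CD103Tg libraries for the 6 genes that passed with a log2 fold change of at least 0.5 in size. Points are libraries 1 to 4 from left to right and bars are mean ± SD; the groups do not overlap in any panel, and the fourth CD103Tg library is the one nearest to B6 in all 6.

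**Figure D4:**
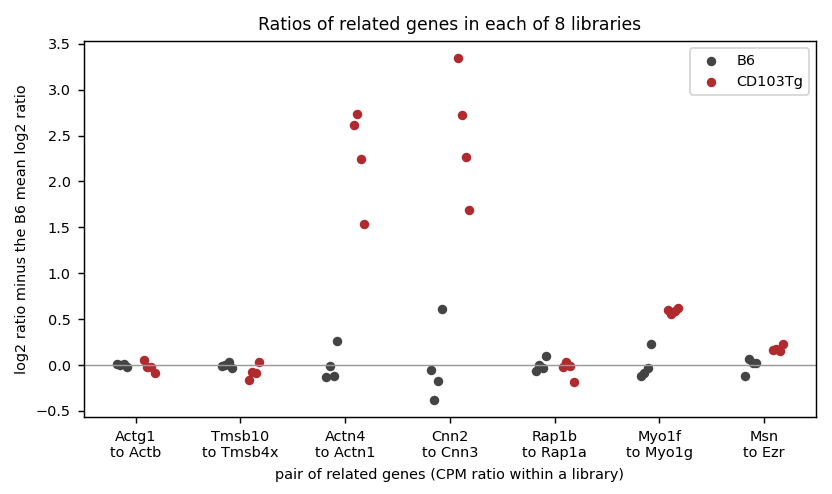
Log2 ratio of 7 pairs of related genes within each library, minus the mean log2 ratio of the B6 libraries (y axis). The ratios of Actn4 to Actn1, Cnn2 to Cnn3, Myo1f to Myo1g and Msn to Ezr do not overlap between the groups, while those of Actg1 to Actb, Tmsb10 to Tmsb4x and Rap1b to Rap1a do.

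Levels per kilobase of exon set the genes with large changes apart from the most abundant ones. In B6, Actb stood at 5260 CPM per kilobase, Tmsb4x at 3540, Coro1a at 949, Actg1 at 872 and Pfn1 at 829. Capg (8.55), Cnn3 (6.84) and Vcl (0.308) were the 3 lowest of the 45, and Actn1 was at 18.3. In CD103Tg, Capg reached 24.9 and Actn1 dropped to 4.61 CPM per kilobase. Of the 12 genes at 200 CPM per kilobase or more in B6, 1 passed the test, which was Ezr. Over all tested genes, at any level, 31.2% were called, and no share was computed for genes at a like level. Tmsb4x, Cnn2, Rap1b, Tmsb10 and Actg1, also at this level, passed under the alternatives named above. All 28 genes that did not pass had 95% intervals within -0.34 and 0.42 on the log2 scale, and 21 of the 28 intervals included 0. The interval end farthest from 0 was a 1.34-fold difference. These are separate intervals of the main fit, not adjusted for their number, so they set no joint bound on the differences.

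**Figure D5:**
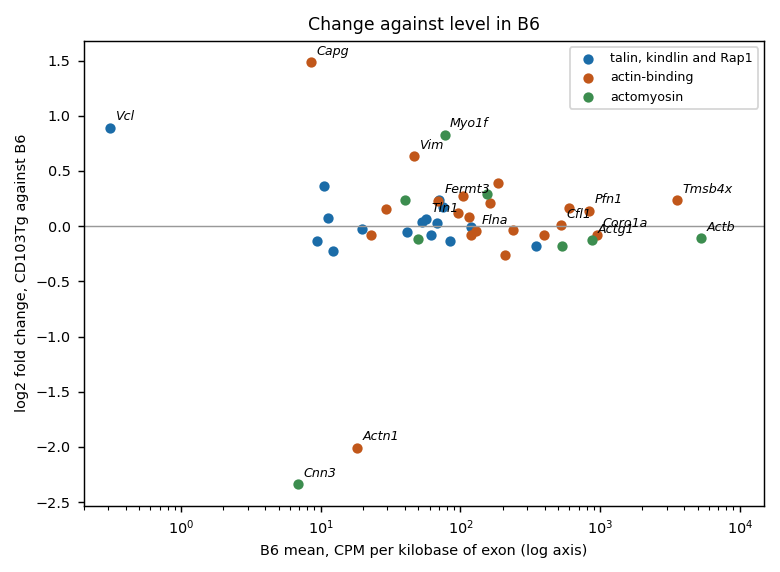
Log2 fold change, CD103Tg against B6 (y axis), against the B6 mean in CPM per kilobase of exon (x axis, log scale) for the 45 genes, coloured by role. The genes far from 0 (Cnn3, Actn1, Capg, Vcl, Myo1f and Vim) lie at or under 77.0 CPM per kilobase, and the genes at the right, up to Actb at 5260, lie near 0.

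The integrin chains on which this machinery acts are given for context. Itgal and Itgb2, which encode the 2 chains of LFA-1, rose from 813 to 1096 CPM (0.43 ± 0.05, limma adjusted p = 7.34e-05) and from 993 to 1284 CPM (0.37 ± 0.06, limma adjusted p = 0.000724). Itgb1, the shared beta 1 chain, rose from 452 ± 38.9 to 1238 ± 168 CPM (1.44 ± 0.10, limma adjusted p = 2.5e-06), while Itga4, its alpha 4 partner in VLA-4, fell from 55.3 ± 2.48 to 27.7 ± 11.1 CPM (-1.04 ± 0.19, limma adjusted p = 0.00169). Itgb7, the partner of CD103, was at 1108 ± 63.8 and 1058 ± 9.34 CPM and did not pass (limma adjusted p = 0.423). Tln1, which binds all of these beta tails, did not pass, and Fermt3 rose by 0.24.

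Other genes of the same pathways, in 4 lists of 155 names with 136 tested, were called in both directions: 31 rose (22.8%), 29 fell (21.3%) and 76 did not pass. Over all tested genes 17.4% rose and 13.8% fell. The share called was 44.1% here and 31.2% over all tested genes. By list it was 45.2% for adhesion signalling, 42.3% for nucleation, 39.5% for turnover and crosslinking, and 48.8% for myosins and small GTPases. No list was tested as a set. Of 31 further adhesion signalling genes, 7 rose and 7 fell. Rap1gap2, a GTPase-activating protein that turns Rap1 off, rose from 6.02 ± 1.45 to 21.4 ± 3.19 CPM (1.69 ± 0.15), and Lpxn, encoding the paxillin relative leupaxin, from 230 ± 2.54 to 332 ± 18.5 CPM (0.52 ± 0.05). Ptk2, encoding focal adhesion kinase, fell from 19.4 ± 2.78 to 10.5 ± 1.10 CPM (-0.82 ± 0.11), and Cytip, encoding a cytohesin-binding protein that loosens LFA-1 adhesion, from 378 ± 47.5 to 252 ± 18.7 CPM (-0.58 ± 0.09). Without CD103Tg replicate 2 the adhesion list had 4 higher and 3 lower, and without CD103Tg replicate 1 or 3 it had 3 or 4 lower.

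Of 26 further genes for actin nucleation, 8 rose and 3 fell. Cyfip1 and Abi3, both of WAVE complexes that switch on Arp2/3, rose from 8.20 ± 1.20 to 20.4 ± 2.67 CPM (1.22 ± 0.12) and from 58.0 ± 6.14 to 96.8 ± 7.87 CPM (0.73 ± 0.08). The formin gene Fmnl3 fell from 74.2 ± 4.24 to 45.7 ± 7.34 CPM (-0.70 ± 0.10), and Abi1, also of the WAVE complex, from 194 ± 14.9 to 165 ± 9.14 CPM (-0.23 ± 0.07). The Abi1 call was lost without B6 replicate 1 (limma adjusted p = 0.0543) or CD103Tg replicate 3 (0.0656). The count of lower nucleation genes was 5 with quantile normalization, with equal totals and without CD103Tg replicate 4, and 1 without CD103Tg replicate 3.

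Of 38 further genes for turnover and crosslinking, 8 rose and 7 fell, and 11 fell with quantile normalization. Ssh1, a phosphatase that activates cofilin, rose from 32.6 ± 0.89 to 55.6 ± 6.90 CPM (0.74 ± 0.08), and the coronin gene Coro1c from 219 ± 11.5 to 282 ± 17.9 CPM (0.36 ± 0.06). Add3, encoding the cortical adducin 3, fell from 585 ± 41.8 to 396 ± 18.7 CPM (-0.56 ± 0.06). Of 41 genes for myosins, small GTPases and their control, 8 rose and 12 fell. Vav3, an exchange factor for Rac, rose from 9.49 ± 0.76 to 23.7 ± 2.96 CPM (1.23 ± 0.10), and Ppp1r12a, the targeting subunit of myosin phosphatase, from 132 ± 8.02 to 185 ± 8.88 CPM (0.48 ± 0.06). Rhoh, a GTPase without GTP hydrolysis that supports receptor signalling, fell from 341 ± 22.4 to 224 ± 15.2 CPM (-0.61 ± 0.06), and Rock1, encoding a kinase that promotes myosin contraction, from 206 ± 3.54 to 175 ± 0.99 CPM (-0.24 ± 0.04). The genes named in these 4 lists had limma adjusted p-values between 8.18e-06 and 0.0199.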

How the data were processed

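RNA from sorted lymph node CD8 T cells of 4 B6 and 4 CD103Tg samples was purified with RNeasy Plus and made into SMART-Seq v4 and Nextera XT libraries, per the labels' protocols. Per the submitters' processing notes, bcl2fastq 2.17, cutadapt 1.18, STAR 2.7.0f and RSEM were used with GRCm38 (mm10). The authors deposited 1 table of 13245 genes, already filtered by a rule not given in the sources used here. Its values are a normalised signal, CPM scaled by TMM per the file headers, and not counts. In each library 62.9% to 65.1% of values were whole multiples (within 0.005) of 1 read, worth 0.0171 to 0.0203 CPM, so reads were used only to describe depth and no count test was run.

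The test was limma-trend (limma 3.58.1, R 4.3.3) on log2(CPM + 1) with genotype as the only term, after genes averaging under 1 CPM had been left out, with Benjamini-Hochberg adjustment over 11503 genes. A fold change on this scale understates the change of low genes. Replicates differed by more than sampling noise (chi-square per degree of freedom 22.0 to 58.9). Coordinates and exon lengths are from GENCODE M21, which matched all 13245 gene IDs. The fit was tested on simulated data with few changed genes and the same excess spread between replicates for every gene. Those settings differ from the data, so that test does not show the error rate here. The genes and lists were chosen with earlier results of these data known. All 45 genes found are named, with values by library for Tln1, Fermt3, Rap1a, Rap1b, Actb, Actg1, Coro1a and every gene that passed with a log2 fold change of at least 0.5 in size (Tmsb4x was added after its values were seen). From each of the 4 lists of other pathway genes, the 2 with the smallest p per direction are named, except 1 that is not reported here. Alternatives covered the pseudocount, the filter, scaling, robust variances, a replicate block and each library left out. Fits without both libraries numbered 4 and with the Y-linked level as a covariate were chosen after seeing the data.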

Additional observations from a re-analysis of the deposited data

Results flagged for a closer look

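In 8 of 134 groups of 4 libraries, the highest or lowest library stood apart from the other 3 by a gap that, divided by the range, exceeded the 95% critical value of Dixon. Chance gives about 1 in 20 such groups. Capg in CD103Tg replicate 4 (48.92 CPM) was the lowest of its group, and Itga4 in the same library (44.03 CPM) the highest of its group, each on the side of the B6 levels. Itgae in B6 replicate 4 (173.9 CPM) was above the other B6 libraries, and so was Myo1f in that library (431.9 CPM), both toward the CD103Tg levels. Vcl in B6 replicate 2 (1.828 CPM) was low and Ezr in B6 replicate 1 (755.6 CPM) was high, both away from the CD103Tg levels. Lims1 in CD103Tg replicate 1 (89.89 CPM) was low and Cfl1 in CD103Tg replicate 1 (1542.5 CPM) was high, in genes that did not pass. Capg and Myo1f passed in every alternative, those without the libraries numbered 4 included.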

How the results depend on the processing

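Of the 17 genes that passed, 13 kept call and direction under all 19 alternatives. Vcl was untested at a minimum mean of 5 CPM and passed otherwise, and Parvg, Rasgrp2 and Cotl1 lost the call in the fits named with them. Another 7 genes passed only under alternatives. With single libraries left out, 11 to 14 genes were higher and 3 to 6 lower. Quantile normalization gave 8 lower and equal totals 7. Other scalings shifted the median of all genes by at most 0.04 on the log2 scale. Signs turned only in genes that did not pass. Without both libraries numbered 4, Tln1 was at -0.013 and Cfl1 at -0.007, and with equal totals Cfl1 was at -0.019. With quantile normalization Fyb was at -0.005, Tmsb4x at -0.018 and Actb at 0.0, the last by construction, since Actb is the highest value in every library. With 1 library left out, Tln1 ranged from -0.002 to 0.122, Rasa3 from -0.029 to 0.019, Skap1 from -0.019 to 0.061, Tagln2 from -0.089 to 0.016 and Cfl1 from -0.032 to 0.047. The replicate numbers share no stated origin, same-numbered samples correlated at 0.221, 0.35, -0.081 and 0.123, and 2 of the 4 B6 samples correlated best with another number. With the replicate number as a block, 13 genes were higher and 5 lower, Cnn2 being the only one added. What limits each difference, depth or the spread between samples, was not tested.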

Other observations

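In 13 of the 17 genes that passed (76.5%), CD103Tg replicate 4 was the CD103Tg library nearest to the B6 mean, against 1617 of all 3592 genes that passed (45.0%). B6 replicate 4 was the B6 library nearest to the CD103Tg mean in 6 of the 17 (35.3%) and in 1203 of the 3592 (33.5%). These shares describe the libraries, since genes are not independent of each other, and no test was made. Among the 45 genes, the highest B6 library was replicate 1 in 17 and replicate 3 in 19, and the lowest was replicate 2 in 18 and replicate 4 in 21. Over all tested genes each B6 library was the highest in 21.1% to 27.8% and the lowest in 21.8% to 32.7%, the last being replicate 4. CD103Tg replicate 4 was the lowest of its group in 25 of the 45 genes (55.6%) and in 31.1% of all tested genes. The 45 genes summed to 4.33% to 4.66% of the signal in the B6 libraries and 4.28% to 4.60% in the CD103Tg libraries.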
